A study of Danio rerio with 96 samples.

Results

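Folic acid (FA) was compared with no supplement in irradiated zebrafish larvae at 84 hours post-fertilization (hpf), across all expressed genes of the whole body. The libraries were chosen by group and time alone, and 12 of the 96 libraries of the series fit, 6 of FA+XR and 6 of XR. FA+XR larvae had 200 μM FA in the medium from 35 hpf and 8 Gy of X-rays at 36 hpf, and XR larvae had the same dose with no FA, so that 84 hpf is 48 h after irradiation. The other groups of that time, 6 libraries each, were FA (200 μM FA, no X-rays) and Cont (neither). Every library was made from 1 larva, and all groups carried the albino alleles slc45a2 b4/b4. Each group was held in a well of its own, so that a well and its treatment cannot be told apart, and the p values cover the spread between larvae only. In whole-body RNA, fewer cells of a type and less RNA per cell also cannot be told apart.

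FA is the stable, oxidized form of a B vitamin that cells reduce to tetrahydrofolate, the carrier of one-carbon units. The folate cycle feeds these units into purine and thymidylate synthesis and into the remethylation of homocysteine to methionine. In the methionine cycle, methionine adenosyltransferases make S-adenosylmethionine, the methyl donor for DNA, RNA, protein, lipid and creatine methylation. Methyl transfer leaves S-adenosylhomocysteine, which is split to homocysteine and either remethylated or passed on toward cysteine and glutathione. The liver holds most of this flux in vertebrates, and *mat1a* encodes the methionine adenosyltransferase of the adult liver in mammals. X-rays break DNA and form reactive oxygen species, and the p53 pathway is the best known transcriptional response to the breaks.

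Total counts ran between 2368213 and 3857260 in FA+XR, between 700645 and 5428850 in XR, between 423265 and 8530530 in FA, and between 3672662 and 6021541 in Cont. The XR library with 700645 counts stood apart. It was the lowest of the 12 FA+XR and XR libraries in the mean of 21 of 39 gene lists, and it is called the shallow XR library from here on. The FA libraries of 423265 and 680281 counts were also under 50% of the median total of 84 hpf, and no Cont library was. Values of FA over Cont below include these FA libraries. Levels are counts scaled to library size (CPM) with TMM factors, which correct for differences in composition between libraries. Markers of liver, pancreas, intestine, cartilage, epidermis, muscle, heart, photoreceptors, lens, neurons and erythroid cells were detected in both irradiated groups, and 2 copies of the macrophage marker MPEG1 stayed at or below 5.55 CPM.

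At 84 hpf 16127 of 25907 genes passed the filter, a mean count of at least 2.5 over 24 libraries. A gene is called where the p of edgeR's quasi-likelihood F test, adjusted by Benjamini and Hochberg over all these genes, is below 10%. One gene, *mat1a*, was called between FA+XR and XR, 0.0062% of the genes tested. The second smallest adjusted p was 0.242. In the study, another package had called *mat1a*, *fkbp5*, *ponzr3* and *ptges3a*, among others, between these same libraries at the same 10% threshold. By unadjusted p below 0.05, 312 genes (1.93%) were higher in FA+XR and 276 (1.71%) were lower. These shares are the background for every list that follows, in the fit of all libraries. Shares over all genes were not computed for fits that leave libraries out, so list counts from those fits have no background. The log2 fold changes lay evenly about 0, with 8065 genes above and 8062 below, and 5% and 95% of them ended at −0.64 and 0.65. The median standard error (SE) of a log2 fold change was 0.13 in the 1733 genes of at least 50 CPM and 0.32 in the 14394 others.

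*mat1a* (ENSDARG00000039605) had 84.2, 100.3 and 113 CPM as lowest, median and highest level in FA+XR larvae, against 44.9, 61.5 and 69.7 CPM in XR larvae. All 6 FA+XR larvae were above all 6 XR larvae. *mat1a* rose 1.70-fold in FA+XR, a log2 fold change of 0.76 (SE 0.13, edgeR adjusted p = 0.00527), and an exact permutation test gave the smallest p that 6 against 6 larvae allow, 0.00216. Every gene without overlap has that p. Exact permutation p values here and below are not adjusted for the choice of a gene out of the 16127 tested. FA larvae lay near the FA+XR level, and Cont larvae lay between FA+XR and XR. Means were 93 ± 10.5 CPM in FA and 81.9 ± 8.73 CPM in Cont (SD, n = 6 each), beside 99.7 ± 13.2 CPM in FA+XR and 57.9 ± 9.59 CPM in XR. The log2 fold change of *mat1a* was 0.19 (SE 0.12) for FA over Cont, not called, and the test of the difference between both FA effects gave 0.58 (SE 0.18, edgeR adjusted p = 0.997). XR over Cont, which shares the XR larvae with the main comparison, had a log2 fold change of −0.48 (edgeR adjusted p = 0.0418).

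**Figure D1:**
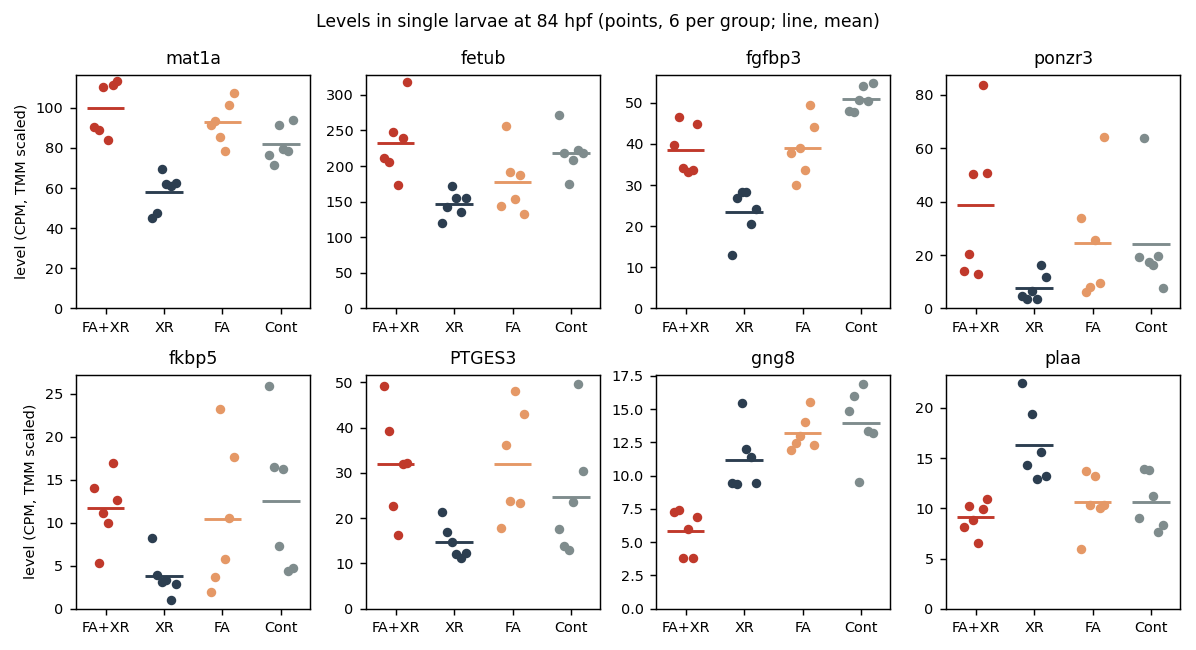
Levels of 8 genes in single larvae at 84 hpf (CPM, TMM scaled), with 1 point per larva, 6 larvae in each of FA+XR, XR, FA and Cont, and a line at each mean. *mat1a*, *fetub* and *fgfbp3* have all 6 FA+XR larvae above all 6 XR larvae, *gng8* and *plaa* have them below, and *ponzr3*, *fkbp5* and PTGES3 overlap.

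*mat1a* was called at 84 hpf and not at the earlier times tested. At 60 hpf, 24 h after irradiation, *mat1a* averaged 52 ± 9.09 CPM in FA+XR and 68.9 ± 16.7 CPM in XR (SD, n = 6 each), a log2 fold change of −0.41 (SE 0.20, edgeR adjusted p = 1.00) in the other direction. At 37 hpf it averaged 107 ± 34.3 CPM in FA+XR and 101 ± 18.7 CPM in XR, and at 36 hpf 79.2 ± 15.5 CPM in FA+XR and 80.5 ± 27.3 CPM in XR. Irradiation was at 36 hpf, and the sample labels do not say whether larvae of 36 hpf were taken before or after it. *fkbp5* averaged 1.27 ± 1.15 CPM in FA+XR and 3.74 ± 3.15 CPM in XR at 36 hpf. At 37 hpf it averaged 18.8 ± 14.6 CPM in FA+XR and 10.19 ± 4.99 CPM in XR, and at 60 hpf 4.48 ± 2.77 CPM in FA+XR and 4.68 ± 4.63 CPM in XR.

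**Figure D2:**
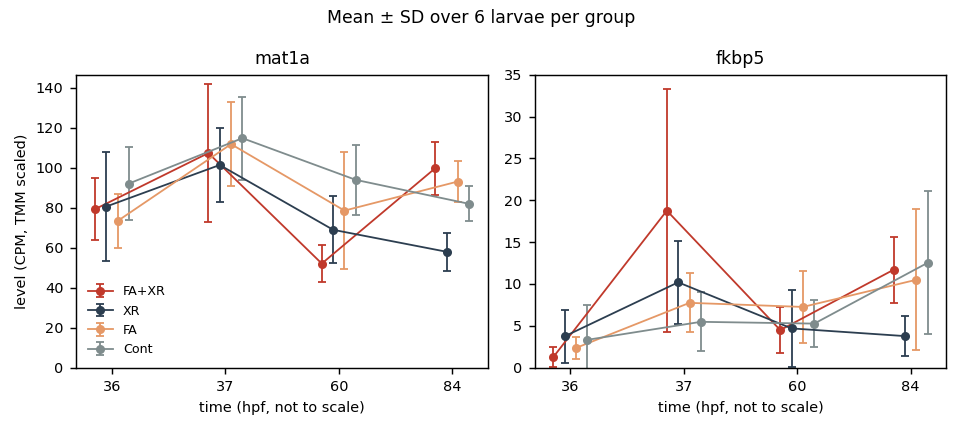
Mean ± SD of *mat1a* and *fkbp5* (CPM, TMM scaled) over 6 larvae per group at 36, 37, 60 and 84 hpf (time not to scale; error bars end at 0). *mat1a* in FA+XR is below XR at 60 hpf, 52 against 68.9 CPM, and above it at 84 hpf, 99.7 against 57.9 CPM.

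Genes next in rank by p missed the threshold in this fit and are given as values. Liver-secreted *fetub* (fetuin B, a protease inhibitor of plasma that protects the egg coat in mammals) had 173, 225 and 319 CPM as lowest, median and highest level in FA+XR, against 119, 149 and 172 CPM in XR. The groups did not overlap, and the log2 fold change was 0.66 (SE 0.14, edgeR adjusted p = 0.242, exact permutation p = 0.00216). With 1 FA+XR or XR library left out, the edgeR adjusted p of *fetub* ran between 0.0631, without the FA+XR larva of 3559299 counts, and 0.555. *fgfbp3*, a secreted carrier of fibroblast growth factors, had 33.1, 36.9 and 46.4 CPM in FA+XR against 13, 25.5 and 28.3 CPM in XR, again without overlap, with a log2 fold change of 0.67 (SE 0.15, edgeR adjusted p = 0.279). Without irradiation both ran the other way, with log2 fold changes for FA over Cont of −0.31 for *fetub* and −0.36 for *fgfbp3*. The mean of *fetub* was 177 ± 45.6 CPM in FA and 219 ± 31 CPM in Cont, and that of *fgfbp3* 39 ± 7.05 CPM in FA and 51 ± 2.92 CPM in Cont (SD, n = 6 each). The difference between the FA effects with and without irradiation was 0.97 (SE 0.20) for *fetub* and 1.03 (SE 0.21) for *fgfbp3*, both with an edgeR adjusted p of 0.164.

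ENSDARG00000103849, which has no symbol, ran alike. It had 80.8, 132 and 151 CPM in FA+XR larvae, against 13.9, 52.2 and 85.2 CPM in XR larvae, and its log2 fold change was 1.34 (SE 0.30, edgeR adjusted p = 0.242). FA larvae had 54.2 ± 31.6 CPM and Cont larvae 77.1 ± 16.3 CPM, and the difference between both FA effects was 2.02 (SE 0.43, edgeR adjusted p = 0.164). With 1 FA+XR or XR library left out, its edgeR adjusted p for FA+XR over XR ran between 0.0762, without the XR library of 2050987 counts, and 0.692.

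Other genes of smallest p that were higher in FA+XR were PARD6G, TOB1, *xkr8.2* and *si:ch1073-303k11.2*. PARD6G, a subunit of the Par polarity complex, had 7.64, 8.50 and 10.4 CPM in FA+XR against 1.55, 3.92 and 4.95 CPM in XR (log2 fold change 1.23, SE 0.30, edgeR adjusted p = 0.362), with no overlap. TOB1, an antiproliferative partner of the CCR4-NOT deadenylase, had 39, 47.8 and 53.8 CPM in FA+XR against 24.0, 30.8 and 46.5 CPM in XR. *xkr8.2*, of the family of phospholipid scramblases that mark dying cells in mammals, had a median of 6.29 CPM in FA+XR and 1.22 CPM in XR. The unannotated *si:ch1073-303k11.2* had 8.27, 10.7 and 12.6 CPM in FA+XR against 4, 5.43 and 7.09 CPM in XR. A pair of these genes rested on few reads. *rgs9bp* had 39 reads in 5 of 6 FA+XR libraries and 2 reads in 2 of 6 XR libraries, and *adgre5b.2* had 21 reads in 6 of 6 FA+XR libraries and 0 reads in the XR libraries, too few for a fold.

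The 12 genes of smallest p that were lower in FA+XR included no called gene. *gng8*, a G protein gamma subunit of olfactory and habenular neurons, had 3.80, 6.44 and 7.44 CPM in FA+XR against 9.41, 10.4 and 15.5 CPM in XR, with no overlap and a log2 fold change of −0.96 (SE 0.24, edgeR adjusted p = 0.362). FA larvae at 13.2 ± 1.35 CPM and Cont larvae at 14 ± 2.61 CPM (SD, n = 6 each) were nearer to XR. *plaa*, a ubiquitin-binding partner of p97, had 6.56, 9.35 and 10.9 CPM in FA+XR against 12.9, 15 and 22.5 CPM in XR (log2 fold change −0.80, SE 0.23, edgeR adjusted p = 0.731), also without overlap. *ubxn8*, another p97 cofactor, had a median of 1.6 CPM in FA+XR and 6.98 CPM in XR, but 1 XR library, that of 700645 counts, had no read, and the exact permutation p was 0.139. *dnph1*, which hydrolyses an abnormal nucleotide, had medians of 9.58 CPM in FA+XR and 16.5 CPM in XR, and *pyroxd1*, a reductase whose loss causes muscle disease in humans, had 7.22 CPM in FA+XR and 14.2 CPM in XR. *rnasel3*, a secreted ribonuclease, had 65.4 CPM in FA+XR and 106 CPM in XR. Of the rest, *cntn5*, *btbd9*, RETSAT and *si:dkey-23a13.22* were at or below 5.55 CPM in median, with log2 fold changes between −3.09 and −1.51, and *si:ch211-81a5.8* had −0.81.

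The 6 and 6 libraries did not overlap in 32 genes that were higher in FA+XR (0.198% of genes) and in 15 that were lower (0.093%). All 47 have the unadjusted exact permutation p of 0.00216, so that p sets none of them apart from the others.

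The gene classes were read through 39 lists, which cover one-carbon metabolism, damage and stress responses, and the tissues of the larva. A list is described by the number of its members tested, by those with an unadjusted p below 0.05 in each direction, and by the median log2 fold change of the members. A range beside a median spans the alternative fits, those without 1 library each included. Of the 1250 list members tested, 31 had such a p and were higher in FA+XR and 22 were lower. The medians were small: 31 of 39 lay within 0.1 of 0 on the log2 scale, 7 lay above 0.1, and exocrine pancreas alone lay below −0.1. Without the shallow XR library, heart muscle (0.07), hypoxia (0.03) and pigment cells (0.05) were no longer above 0.1, and glucocorticoid genes (0.14) were. In signs, 26 medians were above 0 and 13 below. Means over the members in each library overlapped between FA+XR and XR in all lists but the plac8 onzin family. That family has 7 members tested, among them *ponzr3*, which the study had named from these same libraries.

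**Figure D3:**
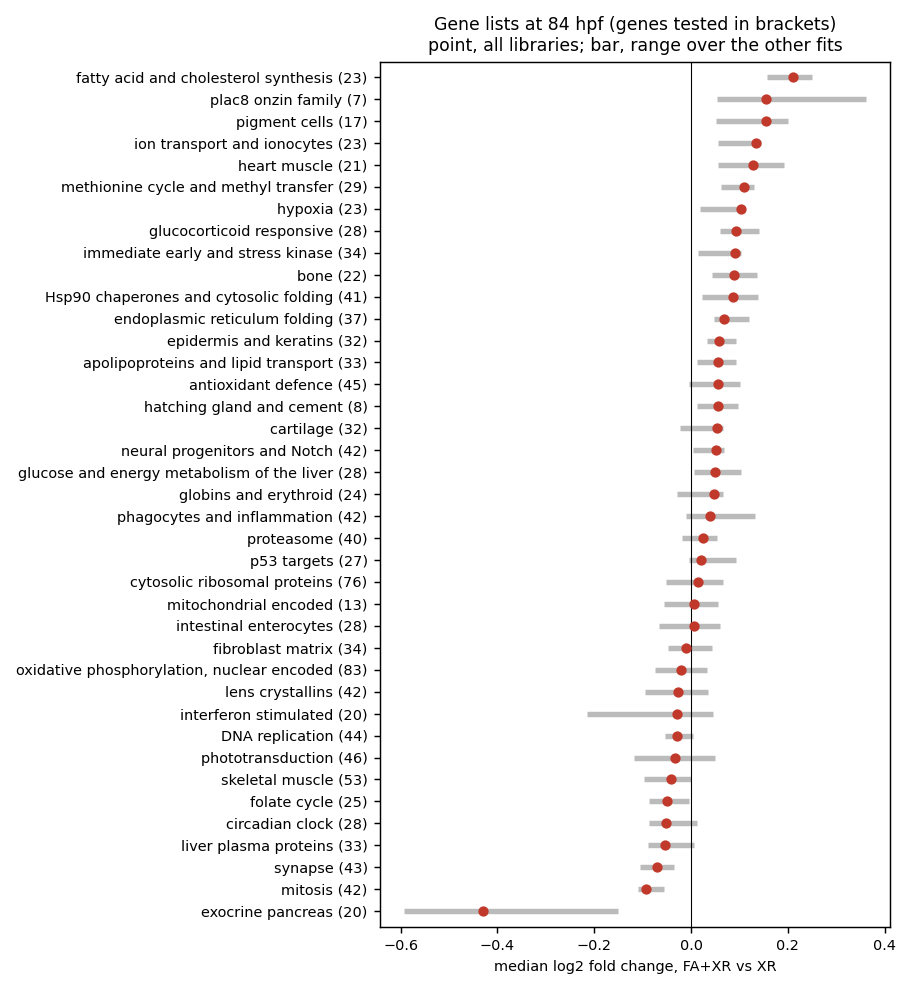
Median log2 fold change of FA+XR over XR at 84 hpf for 39 gene lists, with the number of genes tested in brackets. Points are the fit of all libraries, and bars span the other fits, among them those without 1 library each. Exocrine pancreas is lowest at −0.43, fatty acid and cholesterol synthesis is highest at 0.21, and 31 points lie within 0.1 of 0.

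The methionine cycle and the folate cycle were read apart. Of 29 methionine cycle and methyl transfer genes tested, 23 were above 0, 3 had an unadjusted p below 0.05 and were higher, none was lower, and the median was 0.11 (0.06 to 0.13). The study had named *mat1a* from these same libraries, and the list was chosen with that known, so its count is not independent of *mat1a*. Behind *mat1a* came *gamt*, which methylates guanidinoacetate to creatine, with 509, 526 and 789 CPM in FA+XR against 378, 455 and 617 CPM in XR (log2 fold change 0.32, SE 0.14). *bhmt*, which remethylates homocysteine from betaine, had medians of 1567 CPM in FA+XR and 1541 CPM in XR (0.25, SE 0.12). Without the FA+XR library of 3857260 counts *gamt* had 0.21 and *bhmt* 0.10. *gnmt*, which consumes S-adenosylmethionine to methylate glycine, had 68.3 CPM in FA+XR and 59.3 CPM in XR (0.27, SE 0.15), and *ahcy*, which splits S-adenosylhomocysteine, had 582 CPM in FA+XR and 511 CPM in XR (0.14, SE 0.12). The edgeR adjusted p was above 10% in each but *mat1a*, and the FA+XR and XR larvae overlapped. For FA over Cont the median of this list was 0.08, with −0.08 for *gamt*, 0.07 for *bhmt* and −0.21 for *gnmt*. Without the shallow XR library, 2 members in place of 3 had an unadjusted p below 0.05.

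The folate cycle itself showed no shared direction. Of its 25 genes tested 10 were above 0, with a median of −0.05 (−0.09 to −0.0047) and 1 member with an unadjusted p below 0.05. That member was the MTHFD1 copy ENSDARG00000018266, of the enzyme family that interconverts tetrahydrofolate forms, with medians of 13.8 CPM in FA+XR and 20.1 CPM in XR (log2 fold change −0.45, SE 0.21). The other MTHFD1 copy, ENSDARG00000040492, had 30.5 CPM in FA+XR and 25.9 CPM in XR (0.14, SE 0.17). The folate carrier *slc19a1* had 9.07 CPM in FA+XR and 8.54 CPM in XR (0.28, SE 0.30). Without the shallow XR library, 1 member was higher and none lower at that p.

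Hsp90 and its co-chaperones fold steroid hormone receptors, kinases and myosin. Of 41 genes of cytosolic folding tested, 27 were above 0, 3 had an unadjusted p below 0.05 and were higher, none was lower, and the median was 0.09 (0.02 to 0.14). The study had named *fkbp5* and *ptges3a* (taken here as PTGES3) from these same libraries, and *hsp90aa1.1* from those of 60 hpf. The list was chosen with these known, so its count is not independent of them. Both leading members act with Hsp90 on the glucocorticoid receptor. *fkbp5*, an immunophilin that the receptor itself induces, had 5.32, 11.9 and 17 CPM in FA+XR against 0.990, 3.24 and 8.28 CPM in XR. That is a log2 fold change of 1.89 (SE 0.45, edgeR adjusted p = 0.362, exact permutation p = 0.00433), with some overlap, and levels spread widely in FA larvae, at 10.5 ± 8.42 CPM, and in Cont larvae, at 12.5 ± 8.52 CPM (SD, n = 6 each). PTGES3 encodes the p23 co-chaperone. Its copy ENSDARG00000037284 had 16.3, 32 and 49.1 CPM in FA+XR against 11.1, 13.5 and 21.3 CPM in XR (log2 fold change 1.18, SE 0.28, edgeR adjusted p = 0.360). The other PTGES3 copy, ENSDARG00000089626, had medians of 67.3 CPM in FA+XR and 55.9 CPM in XR (0.31, SE 0.17). *hsp90aa1.1*, the Hsp90 of developing muscle in zebrafish, had 52.5, 77.4 and 124 CPM in FA+XR against 56, 65 and 70.8 CPM in XR (0.38, SE 0.18, exact permutation p = 0.128), and 0.23 without the FA+XR library of 3857260 counts. At 60 hpf the same gene had a log2 fold change of −0.91 and the list a median of −0.10.

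Genes known to respond to glucocorticoids in vertebrates had 22 of 28 members above 0 and a median of 0.09 (0.06 to 0.14), with *fkbp5* alone below an unadjusted p of 0.05, and 3 members below it without the shallow XR library. *tsc22d3*, a classical target, had medians of 30.6 CPM in FA+XR and 26.1 CPM in XR (log2 fold change 0.25, SE 0.20), and *g6pc1a.1*, for the last step of glucose release, 9.43 CPM in FA+XR and 4.78 CPM in XR (0.69, SE 0.36). The SOCS3 copy ENSDARG00000026611, a feedback inhibitor of cytokine signalling, had 15.9 CPM in FA+XR and 10.4 CPM in XR (0.72, SE 0.36). In the endoplasmic reticulum, 27 of 37 folding genes were above 0 (median 0.07, 0.05 to 0.12). Its members with an unadjusted p below 0.05 were the translocon subunit *sec61b* (0.32) and the collagen prolyl isomerase FKBP10 (0.40), which were higher, and the stress factor *ddit3* (−1.42), which was lower. Without the shallow XR library, no member was higher at that p, but 3 were without all libraries of low total.

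Onzins are small cysteine-rich proteins named after mammalian PLAC8, and in zebrafish *ponzr1* acts in kidney and pharyngeal arch development. Of 7 members tested 6 were above 0, 2 had an unadjusted p below 0.05, and the median was 0.16 (0.05 without the XR library of 4238657 counts to 0.36 without that of 2050987 counts). *ponzr3* had 12.8, 35.4 and 83.6 CPM in FA+XR against 3.39, 5.66 and 16.3 CPM in XR. The highest XR larva was above the lowest FA+XR larva, and the log2 fold change was 2.19 (SE 0.49, edgeR adjusted p = 0.242, exact permutation p = 0.00866). With 1 FA+XR or XR library left out, the edgeR adjusted p of *ponzr3* ran between 0.0822, without that same FA+XR larva of 3559299 counts, and 0.891. *ponzr4* had 3.41, 8.6 and 35.5 CPM in FA+XR against 2.71, 4.55 and 10.6 CPM in XR (1.55, SE 0.55, and 0.97 without the FA+XR library of 3785661 counts), and PLAC8 had 28.4, 46 and 54.2 CPM in FA+XR against 20.8, 33.2 and 36.4 CPM in XR (0.48, SE 0.26). The better measured *ponzr1* and *ponzr5* had 0.08 (SE 0.17) and 0.02 (SE 0.20). The mean of the family over its members, as log2 CPM centred on each gene's mean, ran between 0.03 and 0.63 in FA+XR larvae and between −0.41 and −0.11 in XR larvae. *ponzr3* and *ponzr4*, at 2.19 and 1.55, weigh heavily in this mean of 7 genes. The study had named *ponzr3* from these same libraries, and the mean without it was not computed. Reads of near-identical onzins may be shared between copies.

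Lipid synthesis and transport had medians above 0. Of 23 genes of fatty acid and cholesterol synthesis 17 were above 0, and the median of 0.21 (0.16 to 0.25) was the highest of the 39 lists, with 2 members below an unadjusted p of 0.05 (1 without the shallow XR library). *msmo1*, a sterol demethylating oxidase, had 5.83, 13.5 and 28.2 CPM in FA+XR against 7.09, 9.88 and 12.4 CPM in XR (0.56, SE 0.28, and 0.30 without the FA+XR library of 2368213 counts), and ACLY, which supplies cytosolic acetyl-CoA, had medians of 3.76 CPM in FA+XR and 1.47 CPM in XR (1.1, SE 0.51). MVD, an enzyme of the mevalonate pathway, had 0.61 (SE 0.33), and *srebf2*, the transcription factor of sterol genes, had 0.60 (SE 0.33). The fatty acid enzymes *scdb* and *elovl6* had 0.16 (SE 0.13) and −0.16 (SE 0.16). One FA+XR library, with 2368213 counts, was well above the others in the list mean, at 0.52. The list median was −0.13 for FA over Cont and −0.03 for FA+XR over XR at 60 hpf.

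In lipid transport 22 of 33 genes were above 0, with a median of 0.06 (0.01 to 0.09), and 2 were higher at an unadjusted p below 0.05. Without the shallow XR library 1 was higher and 1 lower, and without all libraries of low total 3 were higher and 1 lower. FABP1 (ENSDARG00000059227), a fatty acid carrier of liver and gut, had 398, 489 and 754 CPM in FA+XR against 236, 382 and 435 CPM in XR (log2 fold change 0.52, SE 0.15). *apoa4a*, an apolipoprotein of intestine and yolk, had 23.1, 28.3 and 38 CPM in FA+XR against 14.2, 20.7 and 26.2 CPM in XR (0.48, SE 0.22, edgeR adjusted p = 0.999), and 0.94 in the same comparison at 60 hpf. The abundant *apoc2* had medians of 800 CPM in FA+XR and 747 CPM in XR (0.14, SE 0.10). Liver plasma proteins had 15 of 33 members above 0, none with an unadjusted p below 0.05 (2 lower without the shallow XR library), and a median of −0.05 (−0.09 to 0.01). The liver marker *fabp10a* had 76.1, 301 and 447 CPM in FA+XR against 154, 251 and 552 CPM in XR (−0.07). Glucose and energy metabolism of the liver had a median of 0.05 (0.01 to 0.10).

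Exocrine pancreas was the class with the lowest median, and also the one that varied most between larvae. Of 20 genes tested 3 were above 0, the median log2 fold change was −0.43 (−0.59 without the XR library of 2912632 counts to −0.15 without that of 3425200 counts), and 1 member had an unadjusted p below 0.05. That member, the CEL copy ENSDARG00000017490 (bile salt activated lipase), had 0.574, 2.76 and 4.57 CPM in FA+XR against 1.73, 4.52 and 30.5 CPM in XR, a log2 fold change of −1.79 (SE 0.62), and −0.76 without the XR library of 3425200 counts. Trypsinogen *prss1* had 57.4, 163 and 185 CPM in FA+XR against 75.7, 134 and 363 CPM in XR, with the higher median in FA+XR and a log2 fold change of −0.30. Carboxypeptidase *cpb1* had 3.73, 14.5 and 21.3 CPM in FA+XR against 11.4, 15.7 and 37.5 CPM in XR (−0.58, SE 0.33). In order of total count, the list mean in FA+XR libraries was 0.11, 0.11, 0.36, 0.39, −0.68 and −1.24, and that in XR libraries −0.43, 0.42, −0.24, 1.21, −0.35 and 0.33. Of these, 2 FA+XR larvae were low and 1 XR larva was high, and the other 9 lay between −0.43 and 0.42. The same 2 FA+XR larvae were the lowest of the 12 in enterocyte genes, at −0.37 and −0.38, in a list whose median was 0.01. Pancreas genes had a median of −0.40 for FA over Cont. For FA+XR over XR the median was −0.35 at 60 hpf (5 of 13 genes above 0) and 0.23 at 37 hpf (5 of 9).

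**Figure D4:**
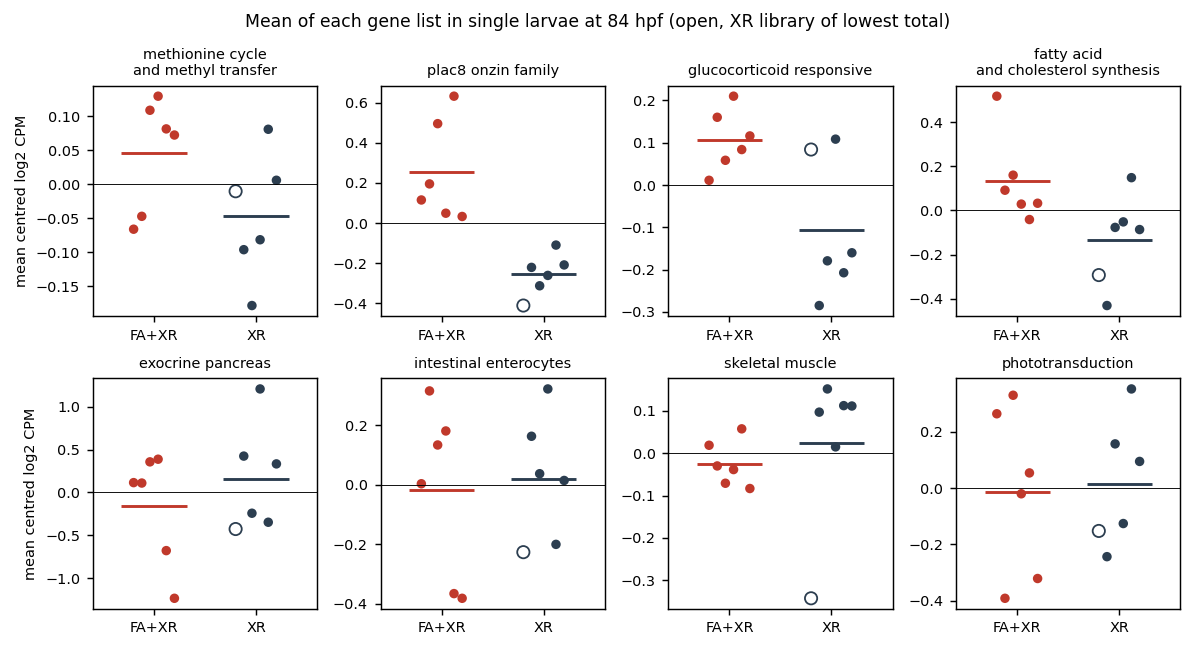
Mean of a gene list in each larva at 84 hpf (log2 CPM centred on each gene's mean over the libraries), 6 FA+XR and 6 XR larvae, with a line at the group mean. The open circle is the XR library of 700645 counts. Only the plac8 onzin panel, a mean of 7 genes with *ponzr3* among them, has no overlap, and the pancreas panel spans −1.24 to 1.21.

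Muscle was measured through 53 skeletal and 21 heart genes. Of 53 skeletal muscle genes 17 were above 0, the median was −0.04 (0.00056 without the XR library of 2912632 counts), 5 had an unadjusted p below 0.05 and were lower, and none was higher. Titin is the spring of the sarcomere, and both TTN copies were among them. ENSDARG00000028213 had 87.6, 108 and 118 CPM in FA+XR against 121, 136 and 161 CPM in XR, without overlap (log2 fold change −0.40, SE 0.15, exact permutation p = 0.00216), and ENSDARG00000000563 had 75.2, 106 and 118 CPM in FA+XR against 116, 120 and 143 CPM in XR (TTN, −0.35, SE 0.15). Reads of near-identical TTN exons may be shared between the copies. *neb*, the thin filament ruler, had medians of 117 CPM in FA+XR and 145 CPM in XR (−0.40, SE 0.16), RYR1, the calcium release channel, had 11.5 CPM in FA+XR and 14.6 CPM in XR (−0.58, SE 0.27), and *actc1b*, an actin of muscle, had 14983 CPM in FA+XR and 18067 CPM in XR (−0.21, SE 0.10, and −0.13 without the XR library of 2912632 counts). The shallow XR library was low in this list, at −0.34, where the other XR larvae ran between 0.02 and 0.15 and the FA+XR larvae between −0.08 and 0.06. Without it the median was −0.10 and 8 members were lower at that p, or 12 without all libraries of low total. The share over all genes was not computed for these fits. For XR over Cont, with the same XR libraries, 10 members were called higher, beside 0.546% of all genes, and the median was 0.24. For FA+XR over Cont 3 were called higher, beside 0.676% of all genes, and the median was 0.18. Both share the Cont larvae. In the heart list 13 of 21 genes were above 0, with a median of 0.13 (0.05 to 0.19), and its 3 members with such a p were both TTN copies and *gata6* (−0.93), all lower.

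Skin was measured through epidermal and ionocyte genes. Of 32 epidermal genes 21 were above 0, with a median of 0.06 (0.03 to 0.09), and 5 were higher and 1 lower at an unadjusted p below 0.05 (3 higher without the shallow XR library). *krt5*, a keratin of the basal layer, had 1606, 1790 and 1980 CPM in FA+XR against 1298, 1560 and 1753 CPM in XR (0.23, SE 0.10). The junction genes JUP and *cldne* had 0.29 (SE 0.13) and 0.31 (SE 0.14). The annexins split, with 0.33 (SE 0.12) for *anxa1b* and −0.52 (SE 0.18) for *anxa1c*. Ion transport had 17 of 23 genes above 0 and a median of 0.13 (0.06 to 0.15). RHCG, an ammonia channel, had medians of 3.92 CPM in FA+XR and 0.194 CPM in XR (2.26, SE 0.77). With an XR level so near 0, the fold of RHCG is uncertain. *slc12a10.2*, a sodium and chloride cotransporter of ionocytes, had medians of 16.7 CPM in FA+XR and 13.1 CPM in XR (0.54, SE 0.23). Pigment cells had a median of 0.15 over 17 genes (0.05 without the shallow XR library), with *gch2*, for pteridine pigment, at 0.63.

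Most synapse genes lay below 0 by small amounts. Of 43 synapse genes 12 were above 0, the median was −0.07 (−0.11 to −0.03), and 3 were lower at an unadjusted p below 0.05. *vamp2*, the vesicle SNARE of neurons, had 2.01, 3.67 and 5.71 CPM in FA+XR against 4.46, 7.85 and 29.6 CPM in XR (−1.38, SE 0.41), where 29.6 CPM came from the shallow XR library. *cplx4c*, a retinal complexin, had −0.87 (SE 0.33), and STMN2, of growing axons, had medians of 29.3 CPM in FA+XR and 37.9 CPM in XR (−0.41, SE 0.17). Without that library 2 members were lower, and without all libraries of low total 4 were. Phototransduction had 19 of 46 genes above 0 and a median of −0.03 (−0.12 to 0.05), in a class where XR over Cont had a median of −0.73 with 17 called lower, beside 1.15% of all genes, and FA+XR over Cont −0.74 with 18 called lower, beside 1.24%. Its members with such a p were *grk1b* (−0.85) and *rom1a* (−0.53, and −0.26 without the shallow XR library, when 1 member was lower at that p). Lens crystallins had a median of −0.03 (−0.10 to 0.03). Their 1 member with such a p was CRYAB (−2.47, and −0.74 without the XR library of 2050987 counts). For FA over Cont the lens median was −0.30, with 21 of 42 lower at such a p, beside 2.54% of all genes. Neural progenitors had a median of 0.05 in FA+XR over XR, with none of 42 genes below such a p.

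Damage and proliferation classes gave no called gene. Of 27 p53 targets 16 were above 0, with a median of 0.02 (at most 0.09, and below 0 in 2 fits). *tnfrsf1a*, the TNF receptor, had 14.5, 25.5 and 28.5 CPM in FA+XR against 13, 16.9 and 20.1 CPM in XR (0.49, SE 0.18), and *tp53inp1* had medians of 3.87 CPM in FA+XR and 1.43 CPM in XR (1.38, SE 0.53). The core targets *mdm2*, *phlda3* and *cdkn1a* had 0.11, −0.15 and −0.12. Against Cont, 10 p53 targets were called higher in XR (median 0.28) and 8 in FA+XR (median 0.49), beside 0.546% and 0.676% of all genes. DNA replication had a median of −0.03 with none of 44 below an unadjusted p of 0.05 (1 lower without the shallow XR library, 3 without all libraries of low total). Mitosis had 13 of 42 above 0, a median of −0.09 (−0.11 to −0.06) and 1 such member (2 without the shallow XR library), the kinetochore gene *nuf2*. It had 11.9, 15.8 and 18.4 CPM in FA+XR against 18.5, 21.9 and 25.2 CPM in XR, without overlap (−0.48).

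Cartilage, the tissue of the jaw, had 19 of 32 genes above 0 and a median of 0.05 (−0.02 with voom to 0.07). MATN3, a cartilage matrix protein, had 7.34, 26.1 and 45.1 CPM in FA+XR against 6.44, 13.1 and 31.4 CPM in XR (0.69, SE 0.32, and 0.42 without the FA+XR library of 3857260 counts). *matn1* had medians of 363 CPM in FA+XR and 370 CPM in XR (−0.11, SE 0.13), and both COL2A1 copies, for the main collagen of cartilage, had −0.10 and 0.06. Bone had a median of 0.09 (0.04 to 0.14) with no member of 22 below an unadjusted p of 0.05.

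Antioxidant genes had 29 of 45 members above 0 and a median of 0.06, which was −0.0046 without the shallow XR library, with 3 in place of 1 member lower at an unadjusted p below 0.05. HMOX1, for the first step of heme breakdown, had 11.1, 18.7 and 20.1 CPM in FA+XR against 7.43, 11.8 and 17.4 CPM in XR (0.55, SE 0.22), and SOD3, the extracellular superoxide dismutase, had medians of 1.6 CPM in FA+XR and 3.90 CPM in XR (−1.08, SE 0.48). The 76 cytosolic ribosomal protein genes had log2 fold changes between −0.07 and 0.09 and a median of 0.01 (−0.05 without the shallow XR library), and the 83 nuclear-encoded genes of oxidative phosphorylation had a median of −0.02, with no member of either below an unadjusted p of 0.05. For FA over Cont, the ribosomal genes had 0 of 76 above 0 and a median of −0.18, beside 7682 of 16127 and −0.02 over all genes. The FA libraries of 423265 and 680281 counts are in that comparison, and the median without them was not computed. At other times FA+XR over XR had 75 of 76 ribosomal genes above 0 at 60 hpf (median 0.13) and 11 of 75 at 37 hpf (−0.07). The shallow XR library had a mean of −0.43 in this list, and a part of depth was not tested. In FA+XR over XR, the 13 mitochondrial genes had a median of 0.01 and the 40 proteasome genes 0.02. The other 9 lists (circadian clock, enterocytes, fibroblast matrix, globins, phagocytes, interferon, immediate early, hypoxia and hatching gland) had medians between −0.05 and 0.10 and at most 2 members with an unadjusted p below 0.05 in either direction.

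**Figure D5:**
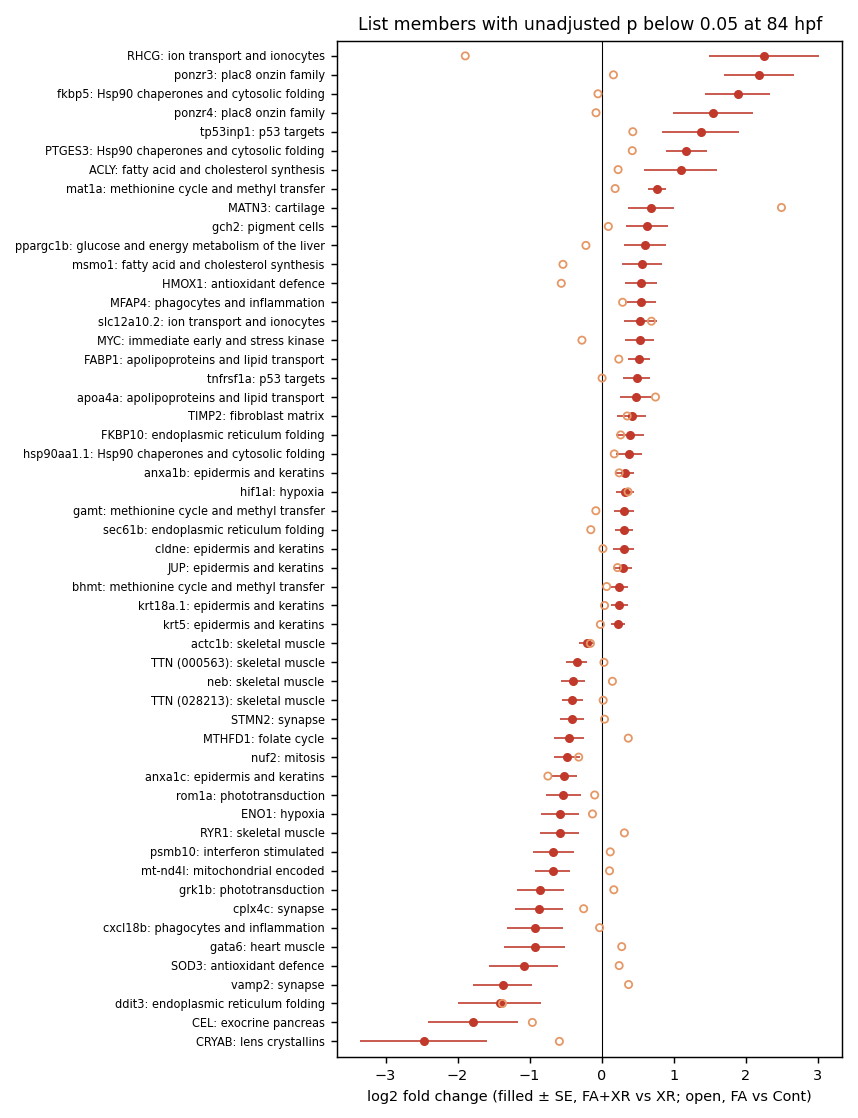
Log2 fold change with its SE for the 53 list members with an unadjusted p below 0.05 in FA+XR over XR at 84 hpf (filled), and the value of the same gene in FA over Cont (open). Of these members 31 are higher and 22 lower in FA+XR. *mat1a* is the called one, at 0.76 beside 0.19 in FA over Cont.

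FA over Cont at 84 hpf, measured in 12 other larvae, called 4 genes (0.0248%). These genes, named after their values were seen, were MATN3, *ngs*, *cmn* and *zgc:113232*. All were higher in FA, with log2 fold changes between 2.5 and 4.46, and they had 0.69, 0.86, 0.71 and −0.01 in FA+XR over XR. By unadjusted p below 0.05, 381 genes (2.36%) were higher in FA and 409 (2.54%) lower. Across all 16127 genes the log2 fold changes of both FA comparisons had a Pearson correlation of 0.03 and the same sign in 50.5%. In the 1733 genes of at least 50 CPM the correlation was 0.15 and the same sign was found in 48.2%. Genes are not independent replicates, and all larvae share the library method. The test of the difference between the FA effects called 0 genes (0%) in edgeR, with a smallest adjusted p of 0.164 and 640 genes (3.97%) at an unadjusted p below 0.05. DESeq2 called 3 and voom with quality weights 3, *fetub* and *fgfbp3* in both, with *scin* in DESeq2 and ENSDARG00000103849 in voom. Against Cont, 273 genes were called in XR (1.69%) and 309 in FA+XR (1.92%), beside the 1 gene between both irradiated groups.

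At 60 hpf FA+XR over XR called 0 of 16319 genes (0%) in edgeR, with a smallest adjusted p of 0.148, and 273 genes (1.67%) were higher and 232 (1.42%) lower at an unadjusted p below 0.05. No other tool was run at that time. In the 15776 genes tested at both times, measured in other larvae, the log2 fold changes had a correlation of 0.02 and the same sign in 51.5%, and 0.16 in the genes of at least 50 CPM. Of the classes above, the methionine cycle had a median of −0.04 at 60 hpf.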

How the data were processed

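Whole-body RNA of single larvae was sequenced as 150-bp paired-end reads, and the authors quantified expression against Ensembl cDNA sequences (GRCz11) with a program not given in the sources used here. The deposited table holds expected counts per gene, not normalized, and 3 values that were not whole were rounded. Columns were assigned to groups through the deposited table of library properties, whose totals equal the column sums. Symbols matched 23608 of 25907 gene IDs. All 24 libraries of a time were fitted together in edgeR 4.0.16 (R 4.3.3) with TMM factors, a mean count of at least 2.5 and the quasi-likelihood F test, called below 10% after Benjamini-Hochberg adjustment. The SE is the log2 fold change divided by the square root of F. CPM use TMM factors, and log2 CPM a prior count of 2 (0.5 as an alternative). Exact permutation tests were two-sided, over all assignments of 6 against 6 larvae. Alternatives were DESeq2 1.42.0, voom with quality weights (limma 3.58.1), iterated TMM factors with edgeR's exact test, RLE factors, no filter, filterByExpr, only 12 libraries, a 5% threshold, and leaving out libraries under 50% of the median total or each library in turn. Scripts were tested on simulated data.

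The members and lists were chosen with earlier results of these data known. Genes were named where called by any of these tools, among the 12 of smallest p in each direction, named by the study, or by p within a list. Figures were drawn with Python 3.11.15.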

Additional observations from a re-analysis of the deposited data

Results flagged for a closer look

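A larva was set apart where its gap to the nearest of the 6 in its group was large against the range of the group, by Dixon's limit at the 95% level. For independent, normally distributed values, chance passes that limit in about 1 in 20 groups. The groups here share libraries, and the genes were picked from these same data, so that share is no yardstick for the counts. Of 56 groups of gene levels 5 passed the limit, and of 78 groups of list means 15 did.

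The XR library with 700645 counts accounted for 9 of the list means, each as the lowest of its group. Its mean of centred log2 CPM was −0.47 for DNA replication, −0.44 for apolipoproteins and lipid transport, −0.66 for bone, −0.34 for skeletal muscle and −0.56 for heart muscle. It was −0.38 for neural progenitors and Notch, −0.53 for phagocytes and inflammation, −0.42 for antioxidant defence and −0.51 for hypoxia. The same library was highest in *vamp2*, with 29.6 CPM. Its mean over all genes on that scale was −0.17, and its part in the comparisons was measured by leaving it out.

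Other XR larvae set apart were that of 2050987 counts, with 46.5 CPM of TOB1 and 38.6 CPM of the PTGES3 copy ENSDARG00000089626, and that of 3425200 counts, with 0.0902 for glucose and energy metabolism of the liver. Among FA+XR larvae, that of 2368213 counts had 6.40 CPM of *rgs9bp* and 0.52 for fatty acid and cholesterol synthesis. The FA+XR larva of 3857260 counts had 0.39 for globins and 0.41 for pigment cells. That of 3785661 counts had −0.18 for nuclear-encoded oxidative phosphorylation and −0.20 for mitochondrial-encoded genes, and that of 3559299 counts had 1.14 CPM of *si:dkey-23a13.22*.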

How the results depend on the processing

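*mat1a* was called in all 20 alternatives, with log2 fold changes between 0.71 and 0.82 and an adjusted p between 0.00379 and 0.0462 with 1 library left out. The number of genes called between FA+XR and XR was 3 with DESeq2, 2 with voom and quality weights, 2 with iterated TMM factors and the exact test, 6 with no filter on low counts, and 7 in a fit of only these 12 libraries, against 1, and 1 to 3 with 1 library left out (3, *mat1a*, *fetub* and *ponzr3*, without the FA+XR library of 3559299 counts). The 7 were *mat1a*, ENSDARG00000103849, *ponzr3*, ENSDARG00000097416, *fkbp5*, the PTGES3 copy ENSDARG00000037284 and *fetub*. FA over Cont called 9 genes with DESeq2, 14 with voom and 13 with no filter, against 4, and 2 (without the FA library of 8530530 counts) to 9 (without that of 4175568 counts). The difference between both FA effects called 3 with DESeq2, 3 with voom, 8 with no filter and 2 without libraries of low total, against 0, and 0 to 2 with 1 library left out (2, *fetub* and ENSDARG00000103849, without the FA library of 680281 counts). The cause was not tested. None of 74 named genes changed direction in any alternative. They were picked by p or by the study from these same libraries, which the alternatives refit, so a change was unlikely from the start. Of the 39 list medians 21 kept their sign in all alternatives and 18 did not. The interferon list had −0.22 without the FA+XR library of 2984685 counts, against −0.03, and the onzin list 0.36 without the XR library of 2050987 counts and 0.05 without that of 4238657 counts, against 0.16. No paired analysis was possible because the labels of the deposited count columns name no replicate. The median SE was 0.32 in genes below 50 CPM and 0.13 in the others.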

Other observations

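A few abundant genes were without overlap between FA+XR and XR although their edgeR adjusted p was 0.999, and were picked out after their values were seen. Among all genes without overlap, 32 were higher in FA+XR (0.198%) and 15 lower (0.093%). The embryonic globin HBE1 (ENSDARG00000113599) had 2782, 3860 and 5104 CPM as lowest, median and highest level in FA+XR larvae, against 2417, 2603 and 2766 CPM in XR larvae, with a log2 fold change of 0.54, where the globin list had a median of 0.05. Reads of near-identical globins may be shared between copies. The selenium carrier *selenop* had 876, 962 and 1050 CPM in FA+XR against 795, 837 and 875 CPM in XR (0.20). The splicing factor SRSF5 had 85.9, 98.0 and 102 CPM in FA+XR against 66.2, 76.8 and 82.4 CPM in XR (0.34). *nmrk2*, a muscle kinase of the NAD salvage pathway, had 48.8, 52 and 58.8 CPM in FA+XR against 31.7, 42.2 and 44.3 CPM in XR (0.44). In the other direction, *fbxo5* had 88.4, 96.1 and 101.9 CPM in FA+XR against 102.5, 106.6 and 119.1 CPM in XR (−0.18).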
